A study of Homo sapiens with 8 samples.

Results

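The mitotic spindle and kinetochore genes are 60 genes that a dividing cell uses to enter mitosis, build the spindle, attach and separate its chromosomes and cut itself apart. They were chosen by gene symbol for their known functions, by a rule that uses no measured value, although earlier results of these data were known when the list was made. All 60 were found among the 57169 rows of the count table, and all 60 passed the filter on low counts that left 21378 genes for testing. RNA was measured in HCT116, a line from a primary human colorectal carcinoma, and in SW620, a line from a lymph node metastasis of a human colorectal carcinoma. Cells of each line were treated for 24 hours with 5-fluorouracil (5-FU), an antimetabolite that blocks thymidylate synthase, or with AFZC. The series title describes nanodrugs in which 5-FU is encapsulated in a metal-organic framework that carries an aptamer, and the labels do not spell out the letters of AFZC. Each agent was given at its IC50 dose for the line, and the concentrations are not given in the labels. The 4 groups, HCT116 with 5-FU, HCT116 with AFZC, SW620 with 5-FU and SW620 with AFZC, had 2 libraries each. Untreated cells were not analysed here, so all 8 libraries come from treated cells and every treatment value below is AFZC relative to 5-FU. Nothing in the labels ties the replicates of one group to different cultures. All p-values therefore weigh a difference against the scatter of 2 libraries per group that may be no more than technical repeats.

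Cells make most of these RNAs in G2 phase and mitosis and keep them low in G1 and in arrested cells. Cyclin B with CDK1, helped by the transcription factor FOXM1 and by the Polo and Aurora kinases, drives a cell into mitosis. Kinetochores assembled on centromeric chromatin then bind microtubules, the spindle checkpoint holds the anaphase-promoting complex inactive until every chromosome is attached, and separase frees the sister chromatids. Kinesins and midzone proteins elongate the spindle and complete cytokinesis.

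In SW620 these genes were higher under AFZC than under 5-FU almost throughout, and in HCT116 few of them differed. Levels are given in CPM, each gene's counts scaled to the library's total by edgeR with TMM factors. Summed over the 60 genes, SW620 had 2192 and 1958 CPM in its 5-FU libraries and 6478 and 5190 CPM in its AFZC libraries. HCT116 had 2803 and 3284 CPM under 5-FU and 3233 and 5027 CPM under AFZC. The SW620 groups lay far apart, while AFZC replicate 1 of HCT116 lay inside the range of the 5-FU libraries and AFZC replicate 2 well above it. As a share of all counts, the genes took 0.190% and 0.160% in SW620 with 5-FU and 0.719% and 0.557% with AFZC. The libraries are from whole cultures, so fewer cells in G2 phase and mitosis and less of these RNAs per cell cannot be told apart.

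Gene by gene, a call means an adjusted p under 0.05 in edgeR's quasi-likelihood test, adjusted by the method of Benjamini and Hochberg over all 21378 genes. By this rule 51 of the 60 rose in SW620 and 0 fell, against a background of 11.6% of all genes called higher and 6.95% called lower. The median log2 fold change of the 60 was 1.56, and that of all genes tested was 0.03. Both AFZC libraries exceeded both 5-FU libraries for 59 of the 60, a pattern shown by 31.5% of all genes. Of the 51 that rose, 49 were at least 2-fold higher and 18 at least 4-fold. Of all 2482 genes called higher, 1948 were at least 2-fold higher and 1082 at least 4-fold. Calls of 45 of the 51 held in every other setting tried, which left out single libraries or changed the scaling, filter or test. AURKA, CCNB2, CDC20, KIF18A, KIF20A and KIF20B lost theirs in at least 1 of them.

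In HCT116, 6 of the 60 rose and 0 fell, where 5.87% of all genes were called higher and 3.74% lower. The median log2 fold change was 0.34, against 0.00 over all genes, and 53 of the 60 values were above 0. Both AFZC libraries exceeded both 5-FU libraries for 27 of the 60, against 28.1% of all genes. The 6 were UBE2C, PTTG1 and ESPL1 of anaphase control, CKAP2L of the spindle, and ANLN and CEP55 of cytokinesis. All 6 calls were lost without replicate 1 of HCT116 5-FU and again without replicate 2. In those fits 216 and 383 of all genes were called higher in HCT116, compared with 1254 with all libraries.

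**Figure D1:**
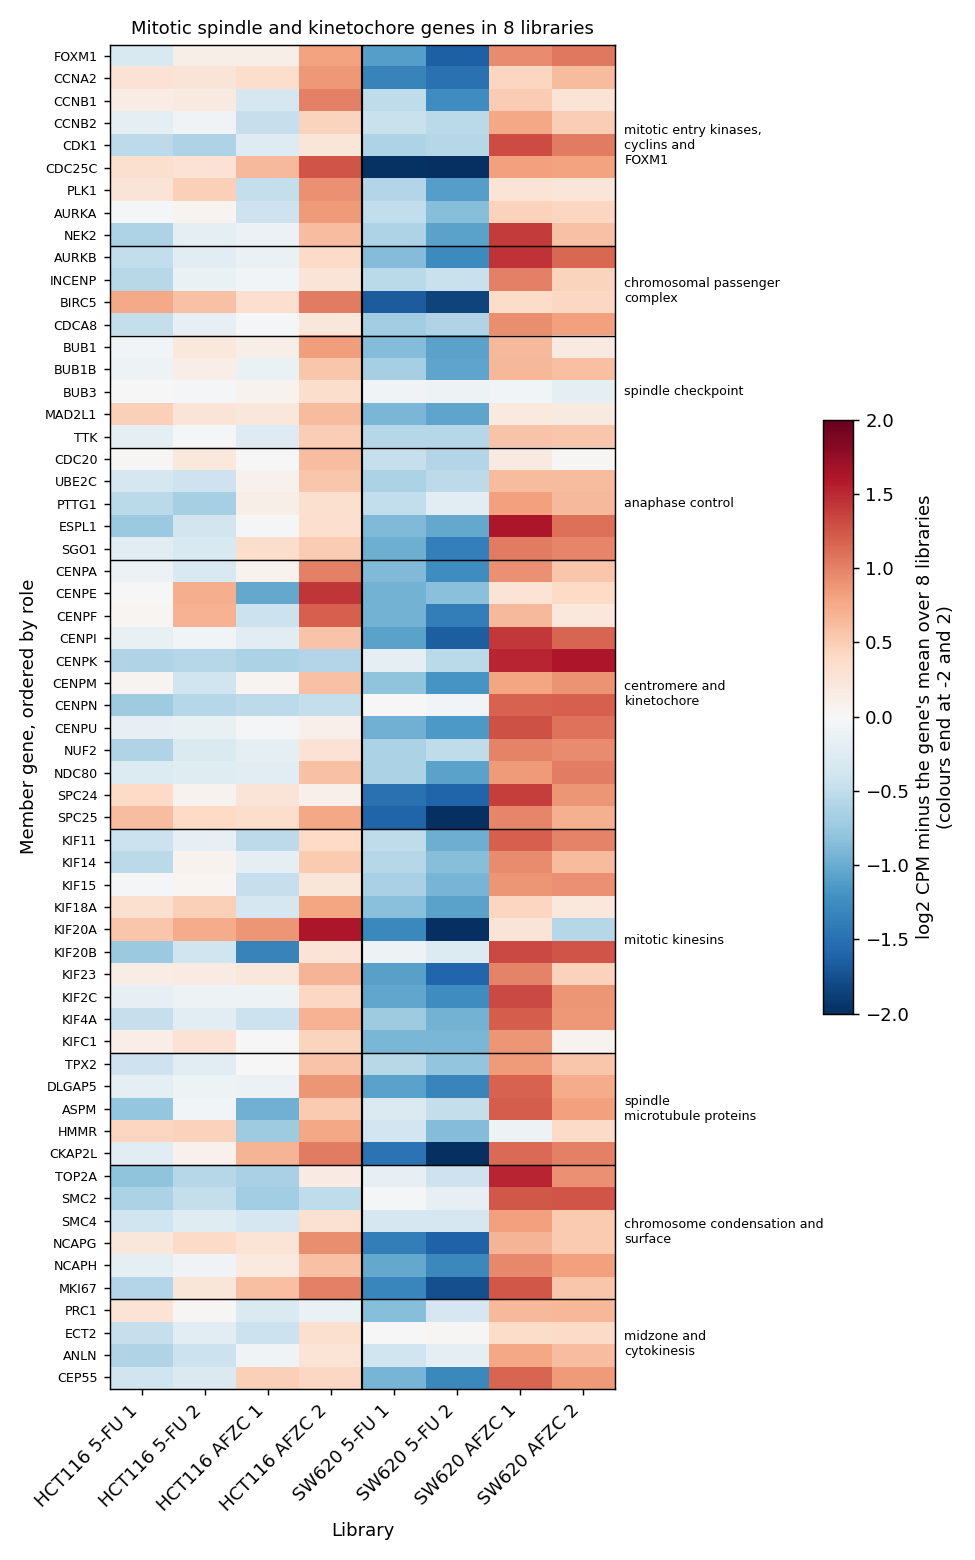
Levels of the 60 genes (rows, ordered by role) in the 8 libraries (columns), as log2 CPM minus the gene's mean over the libraries, with red above and blue below the mean. The 2 SW620 5-FU columns are mostly blue and the 2 SW620 AFZC columns mostly red, and HCT116 AFZC replicate 2 is redder than replicate 1.

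The difference between the lines was tested directly, as the AFZC effect in SW620 minus that in HCT116. It was higher for 31 of the 60 genes and lower for 0, against 5.65% and 4.14% of all genes. The median difference was 1.26 on the log2 scale, and 59 of the 60 differences were above 0. Of the 31, 19 kept the call in every setting tried, and BUB1B, CDCA8, CDK1, CENPM, CENPN, DLGAP5, KIF11, KIFC1, MAD2L1, NDC80, NUF2 and SGO1 lost it in at least 1. Kinetochore genes had 9 of 12 called and the chromosomal passenger complex 3 of 4. Anaphase control had 2 of 5 called and midzone and cytokinesis genes 1 of 4.

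**Figure D2:**
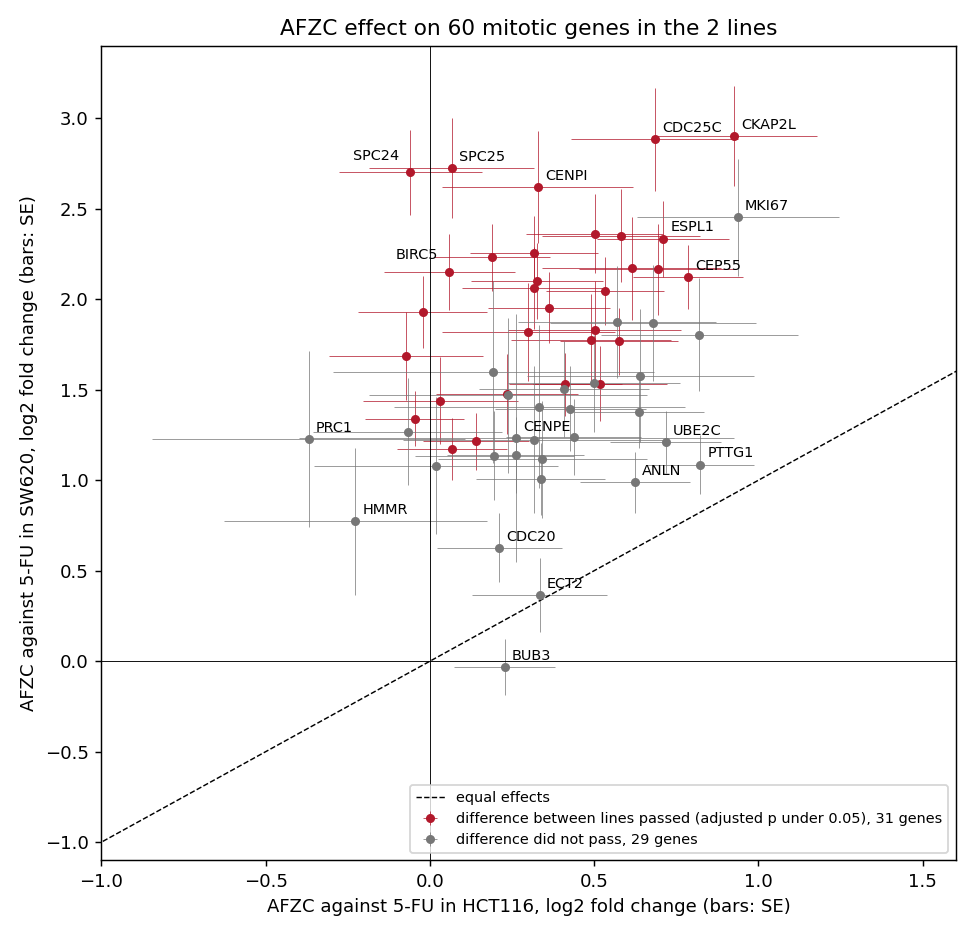
Log2 fold change of AFZC against 5-FU in HCT116 (x axis) and SW620 (y axis) for the 60 genes, with standard errors as bars and the dashed line at equal effects. All genes but BUB3 lie above the dashed line, and 31 of them, in red, passed the test of the difference.

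Among the promoters of these genes, 3 short sequences are known to recur. The cell cycle genes homology region (CHR) binds the DREAM and MMB complexes, which repress cell cycle genes in resting cells and activate them late in the cycle. The CCAAT box binds NF-Y, and E2F sites are typical of genes of S phase. RefSeq promoters on GRCh38.p14 were at hand for 52 of the 60 genes, each running from 250 bases before the transcription start to 50 after it. The 120 bases before the start are shown for 8 genes, 5′ to 3′ on the gene's strand, with CHR and CCAAT matches on either strand in capitals. ESPL1 and CKAP2L are shown as examples of the genes called in both lines, CCNB2 for its several CCAAT boxes and MKI67 for its overlapping matches. PLK1 and HMMR are shown because their 2 HCT116 AFZC libraries lay over 2-fold apart. SPC24 and KIF2C are shown because they rose strongly in SW620 with no CHR match. In the order named, the stretches lie at chr12:53268179-53268298 (plus strand), chr2:112764610-112764729 (minus strand), chr15:59105026-59105145 (plus strand), chr10:128126424-128126543 (minus strand), chr16:23678769-23678888 (plus strand), chr5:163460512-163460631 (plus strand), chr19:11155783-11155902 (minus strand) and chr1:44739717-44739836 (plus strand).
ESPL1: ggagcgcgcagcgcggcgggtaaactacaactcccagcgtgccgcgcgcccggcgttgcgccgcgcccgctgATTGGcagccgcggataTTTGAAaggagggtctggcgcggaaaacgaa
CKAP2L: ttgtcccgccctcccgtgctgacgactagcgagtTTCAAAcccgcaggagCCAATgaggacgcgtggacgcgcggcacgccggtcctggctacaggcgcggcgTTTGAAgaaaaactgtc
CCNB2: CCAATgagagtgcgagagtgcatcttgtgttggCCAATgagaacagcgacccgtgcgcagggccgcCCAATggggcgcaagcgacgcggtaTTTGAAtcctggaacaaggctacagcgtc
MKI67: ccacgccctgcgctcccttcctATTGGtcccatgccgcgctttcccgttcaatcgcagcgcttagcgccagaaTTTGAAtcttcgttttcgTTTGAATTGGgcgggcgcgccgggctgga
PLK1: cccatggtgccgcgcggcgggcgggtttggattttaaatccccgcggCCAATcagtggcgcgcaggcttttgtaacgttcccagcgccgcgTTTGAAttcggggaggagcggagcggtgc
HMMR: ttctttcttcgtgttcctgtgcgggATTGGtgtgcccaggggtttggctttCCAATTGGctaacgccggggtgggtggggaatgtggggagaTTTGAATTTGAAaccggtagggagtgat
SPC24: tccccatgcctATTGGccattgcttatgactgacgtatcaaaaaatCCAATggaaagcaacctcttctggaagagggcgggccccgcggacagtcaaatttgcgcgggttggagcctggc
KIF2C: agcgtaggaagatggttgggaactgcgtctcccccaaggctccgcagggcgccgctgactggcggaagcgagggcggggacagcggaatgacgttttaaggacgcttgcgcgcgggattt

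In ESPL1 the CCAAT match began at position -48 and the CHR match at -31, counted back from the start, and in PLK1 they began at -73 and -29. CCNB2 had its CHR match at -29 behind 3 CCAAT boxes in the stretch shown. Of the other genes called in both lines, PTTG1 held CCAAT boxes and no CHR match, and ANLN held CHR matches and no CCAAT box. CEP55 held both, and UBE2C had no promoter at hand. Letters of the motifs were TTTGAA for the CHR, TTCGAA for a variant of it, CCAAT, and TTCCCGCC for E2F, searched on both strands, and matches may overlap, as in MKI67. The CHR was found in 36 of the 52 promoters (69.2%), compared with 1268 of 12634 promoters of tested genes (10.04%) and 0 of 28 promoters of DNA replication genes. In all 27305 promoters of the table the share was 15.4%. CCAAT boxes were in 40 of the 52 (76.9%), 36.2% of tested genes and 16 of the 28 replication genes. A CHR or its variant together with a CCAAT box occurred in 30 of the 52 (57.7%) and in 4.79% of tested genes. E2F letters were in 4 of the 52 (7.69%), 9 of the 28 replication genes (32.1%) and 4.66% of tested genes. Other forms of the E2F site were not searched, so a promoter without these letters may still hold one. Where the table lists several starts (7 of the 52 genes) the first was used, and counting every start gave a CHR in 37 of the 52, in 13.9% of tested genes and in 0 of the 28.

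Members with the CHR letters TTTGAA had a median SW620 log2 fold change of 1.52 (range 0.37 to 2.90), with 30 of 36 called. Those without these letters had a median of 2.00 (range 1.09 to 2.88), with 14 of 16 called. Medians in HCT116 were 0.33 and 0.40. Among members without TTTGAA, BUB1 and SGO1 hold the variant TTCGAA. Counting it too gave SW620 medians of 1.52, with 32 of 38 called, and 2.00, with 12 of 14 called. Other forms of the CHR were not searched, so a gene without a match may still hold one. SPC24 and KIF2C, which hold no CHR match in this window, rose 6.50-fold and 4.77-fold in SW620. PLK1 and HMMR, which hold one, were not called there, although their SW620 groups did not overlap. These genes were picked for their values, and whether the CHR bears on the changes was not tested. A match is only a description of these letters and no measure of binding.

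**Figure D3:**
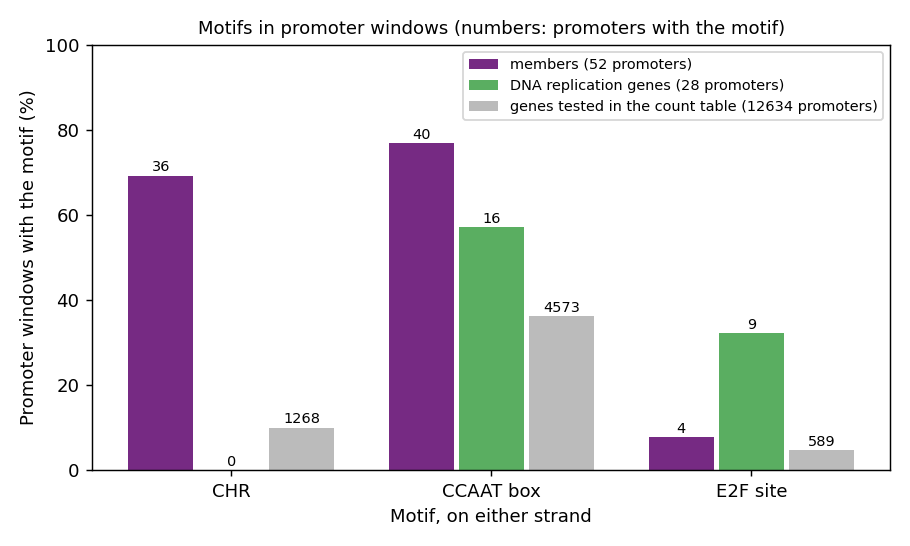
Share of promoter windows (y axis, percent) with a CHR, CCAAT box or E2F match for the members, DNA replication genes and all tested genes, with the number of promoters that hold the match above each bar. The CHR bar is 69.2% for the members and 0 for the 28 replication genes, and the E2F bar is highest, at 32.1%, for the replication genes.

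Of the 9 genes for entry into mitosis, 7 rose in SW620 and 0 were called in HCT116. FOXM1, the transcription factor of the late cell cycle, stood at 18.8 and 13.0 CPM in SW620 with 5-FU and 78.5 and 84.0 CPM with AFZC, and at 32.7 and 44.2 CPM with 5-FU and 44.1 and 71.0 CPM with AFZC in HCT116, where the groups overlapped. The SW620 change was 5.11-fold (log2 fold change 2.35 ± 0.25, SE, adjusted p = 0.000104), and the difference between the lines was 1.77 ± 0.35 (adjusted p = 0.00809). CDC25C, the phosphatase that activates CDK1, had the largest change of this set, from 1.93 and 1.69 to 13.5 and 13.3 CPM (7.38-fold, log2 fold change 2.88 ± 0.28, adjusted p = 3.42e-05). In HCT116 it stood at 9.45 and 9.24 CPM with 5-FU and 11.9 and 18.1 CPM with AFZC, groups that did not overlap but did not pass the test (log2 fold change 0.68, adjusted p = 0.111). CDK1, the kinase itself, was the most abundant of the set in SW620, at 88.8 and 92.2 CPM under 5-FU and 337 and 279 CPM under AFZC. It rose 3.4-fold there (adjusted p = 5.26e-05) and in HCT116 read 95.4 and 89.3 CPM with 5-FU and 114 and 161 CPM with AFZC (log2 fold change 0.57 ± 0.18, adjusted p = 0.0616). The difference for CDK1, 1.19 ± 0.25 (adjusted p = 0.0113), lost its call without replicate 1 of HCT116 5-FU.

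CCNB1, cyclin B1, and PLK1, the Polo-like kinase, were the 2 entry genes that did not pass in SW620, although their groups did not overlap there. CCNB1 stood at 52.3 and 31.4 CPM under 5-FU and 106 and 89.8 CPM under AFZC (log2 fold change 1.22 ± 0.41, adjusted p = 0.0755). PLK1 stood at 22.6 and 15.8 CPM with 5-FU and 41.0 and 40.1 CPM with AFZC (log2 fold change 1.08 ± 0.38, adjusted p = 0.0799). Both passed when either HCT116 AFZC library was left out, and both passed with the SW620 libraries alone. Those 2 libraries read 59.1 and 149 CPM for CCNB1 and 24.2 and 64.0 CPM for PLK1, and in one model for 8 libraries such a gap enters the error of every comparison. The cyclins CCNA2 and CCNB2 rose in SW620, 3.87-fold and 2.20-fold, the latter call being lost without replicate 2 of SW620 5-FU. NEK2, a centrosome kinase, rose 3.65-fold, and the Aurora kinase AURKA 2.17-fold (adjusted p = 0.0359), a call that was lost without any 1 of the 6 libraries other than HCT116 AFZC.

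All 4 genes of the chromosomal passenger complex, which corrects faulty attachments and directs cytokinesis, rose in SW620, and none was called in HCT116. AURKB, its kinase, read 22.4 and 16.9 CPM under 5-FU and 112 and 90.1 CPM under AFZC in SW620, and 28.97 and 34.9 CPM with 5-FU and 37.2 and 53.3 CPM with AFZC in HCT116. The SW620 rise was 5.14-fold (log2 fold change 2.36 ± 0.22, adjusted p = 2.14e-05), and the difference from HCT116 was 1.86 ± 0.30 (adjusted p = 0.00251). BIRC5, survivin, read 19.6 and 17.3 CPM with 5-FU and 80.8 and 83.3 CPM with AFZC in SW620 (4.44-fold, adjusted p = 3.39e-05). Its HCT116 libraries read 105 and 93.9 CPM under 5-FU and 78.7 and 129 CPM under AFZC and overlapped (log2 fold change 0.06 ± 0.20, adjusted p = 0.909). BIRC5 in SW620 with AFZC lay within the range of the HCT116 libraries, and with 5-FU far below it. INCENP, the scaffold, and CDCA8, borealin, rose 2.36-fold and 2.89-fold in SW620.

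Among spindle checkpoint genes, 4 of 5 rose in SW620 and BUB3 did not. BUB3, a WD40 protein that brings BUB1 and BUBR1 to kinetochores, read 192 and 189 CPM with 5-FU and 195 and 177 CPM with AFZC in SW620. HCT116 read 204 and 199 CPM with 5-FU and 213 and 259.5 CPM with AFZC, so all 8 libraries lay between 177 and 259.5 CPM. Its SW620 log2 fold change was -0.03 ± 0.15 (adjusted p = 0.931), or 0.35 and still not called when libraries were scaled by their totals alone. BUB1B, which encodes BUBR1, rose from 27.2 and 20.6 to 67.6 and 64.9 CPM (2.78-fold, log2 fold change 1.47 ± 0.22, adjusted p = 0.000785). Its HCT116 libraries, at 40.0 and 46.8 CPM with 5-FU and 39.2 and 62.9 CPM with AFZC, overlapped, and the difference of 1.24 ± 0.31 (adjusted p = 0.0244) lost its call without either HCT116 5-FU library and without replicate 2 of SW620 5-FU. BUB1, a checkpoint kinase, rose from 28.7 and 25.1 to 82.3 and 59.5 CPM (2.63-fold, adjusted p = 0.00187). MAD2L1, the MAD2 inhibitor of CDC20, and TTK, the MPS1 kinase, rose 2.26-fold and 2.20-fold.

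Of the 5 anaphase control genes, 3 rose in HCT116 and all 5 in SW620. PTTG1, securin, the inhibitor of separase, read 33.0 and 30.2 CPM under 5-FU and 51.8 and 59.9 CPM under AFZC in HCT116, and 34.1 and 41.4 CPM with 5-FU and 84.9 and 75.2 CPM with AFZC in SW620. It rose in both lines, with log2 fold changes of 0.82 ± 0.16 in HCT116 (adjusted p = 0.00829) and 1.09 ± 0.16 in SW620 (adjusted p = 0.000807), and the difference of 0.26 ± 0.23 did not pass (adjusted p = 0.526). UBE2C, the ubiquitin-conjugating enzyme of the anaphase-promoting complex, read 48.0 and 45.5 CPM with 5-FU and 64.3 and 89.5 CPM with AFZC in HCT116 and 39.3 and 42.0 CPM with 5-FU and 94.3 and 93.7 CPM with AFZC in SW620. Its log2 fold changes were 0.72 ± 0.17 (adjusted p = 0.0184) and 1.21 ± 0.17 (adjusted p = 0.000505), with a difference of 0.49 ± 0.24 (adjusted p = 0.222). ESPL1, separase, was unlike these 2, since it rose much more in SW620. It read 36.6 and 47.5 CPM with 5-FU and 60.2 and 77.3 CPM with AFZC in HCT116 (log2 fold change 0.71 ± 0.20, adjusted p = 0.0425) and 33.3 and 30.4 CPM with 5-FU and 189 and 133 CPM with AFZC in SW620 (5.04-fold, log2 fold change 2.33 ± 0.21, adjusted p = 1.68e-05), a difference of 1.62 ± 0.28 (adjusted p = 0.00417). SGO1, shugoshin, the protector of centromeric cohesion, rose from 4.2 and 3.20 to 16.9 and 16.3 CPM in SW620 (4.49-fold, adjusted p = 0.000119). CDC20, the activator of the complex, had the smallest called change of all, from 55.1 and 51.0 to 86.4 and 77.3 CPM (1.54-fold, adjusted p = 0.0378), which was lost without either 5-FU library of either line and without replicate 1 of SW620 AFZC.

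**Figure D4:**
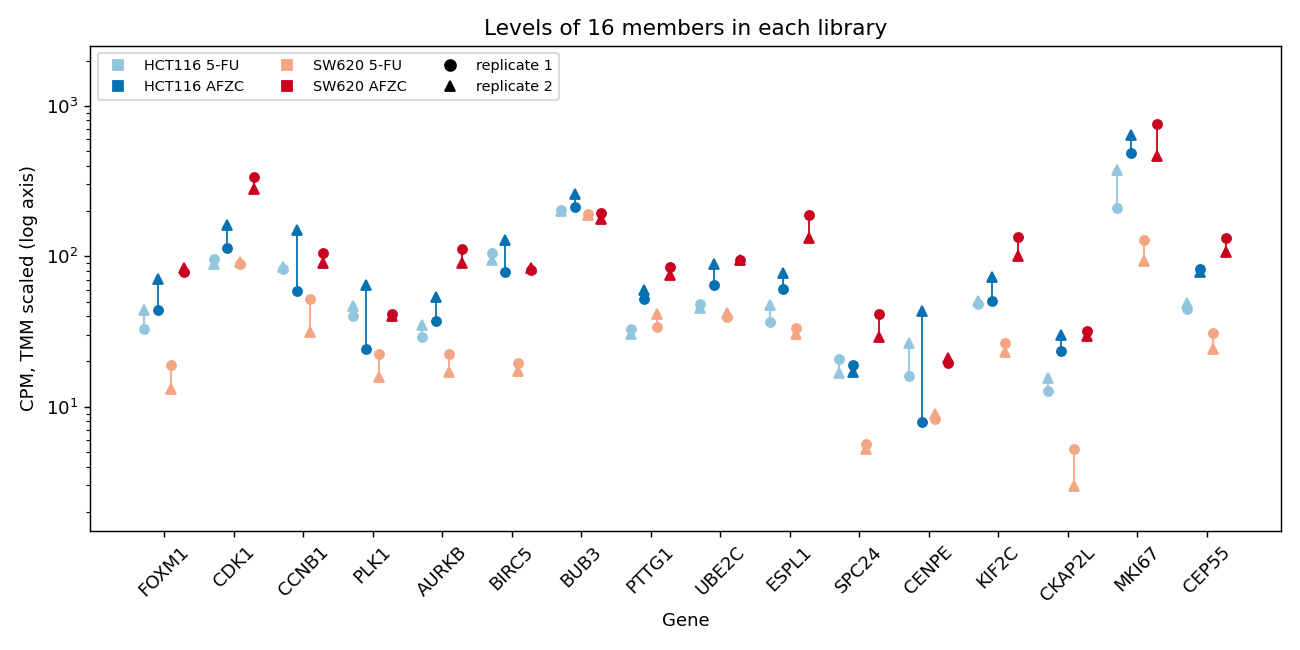
Levels of 16 of the genes in each library, in TMM-scaled CPM on a log axis, with circles for replicate 1, triangles for replicate 2 and a line joining the 2 libraries of a group. The SW620 AFZC points sit above the SW620 5-FU points for every gene shown but BUB3, and CENPE, CCNB1 and PLK1 show the long bars of HCT116 AFZC.

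Of the 12 centromere and kinetochore genes, 10 rose in SW620, 0 were called in HCT116 and 9 differed between the lines. SPC25 and SPC24, which form the end of the NDC80 complex that docks on the inner kinetochore, had the largest changes. SPC24 read 5.65 and 5.23 CPM with 5-FU and 41.5 and 29.2 CPM with AFZC in SW620, and 20.9 and 16.8 CPM with 5-FU and 19.1 and 17.1 CPM with AFZC in HCT116, where the groups overlapped. Its SW620 change was 6.50-fold (log2 fold change 2.70 ± 0.24, adjusted p = 1.34e-05), and its difference of 2.76 ± 0.32 (adjusted p = 0.000341) was the largest among the 60. SPC25 read 3.58 and 2.33 CPM with 5-FU and 21.3 and 17.7 CPM with AFZC in SW620 (6.62-fold, adjusted p = 4.49e-05) and 16.5 and 14.3 CPM with 5-FU and 13.9 and 18.4 CPM with AFZC in HCT116. The difference was 2.66 ± 0.37 (adjusted p = 0.00101). The other arm of that complex, NDC80 and NUF2, which binds the microtubule, rose 3.42-fold and 2.89-fold. CENPA, the histone H3 variant that marks centromeres, rose from 5.75 and 4.47 to 20.0 and 15.6 CPM (3.49-fold, adjusted p = 0.00184). Of the constitutive centromere proteins, CENPI rose 6.15-fold, CENPU 4.70-fold, CENPK 3.81-fold, CENPM 3.55-fold and CENPN 2.32-fold.

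CENPE, a kinesin that moves chromosomes to the spindle equator, and CENPF, a large protein of the outer kinetochore, were the 2 kinetochore genes not called in SW620. CENPE read 8.30 and 8.94 CPM with 5-FU and 19.4 and 21.1 CPM with AFZC there (log2 fold change 1.23 ± 0.68, adjusted p = 0.266). CENPF read 63.4 and 46.9 CPM with 5-FU and 192 and 141 CPM with AFZC (log2 fold change 1.598 ± 0.50, adjusted p = 0.0675). Neither gene overlapped between the SW620 groups, and both passed without either HCT116 AFZC library. Those 2 libraries read 7.87 and 43.2 CPM for CENPE and 90.7 and 279.5 CPM for CENPF, on either side of the HCT116 5-FU values of 15.9 and 26.6 CPM and 126 and 198 CPM.

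All 10 mitotic kinesins rose in SW620, and none was called in HCT116. KIF2C, which depolymerizes microtubules at centromeres, read 26.3 and 23.0 CPM with 5-FU and 135 and 99.96 CPM with AFZC in SW620, against 48.4 and 50.3 CPM with 5-FU and 50.6 and 72.3 CPM with AFZC in HCT116. The change was 4.77-fold (log2 fold change 2.25 ± 0.20, adjusted p = 1.85e-05), with a difference of 1.94 ± 0.28 (adjusted p = 0.00132). KIF23, the kinesin of centralspindlin in the midzone, read 23.5 and 16.7 CPM with 5-FU and 99.1 and 68.8 CPM with AFZC in SW620 (4.18-fold, adjusted p = 9.07e-05) and 55.5 and 56.0 CPM with 5-FU and 58.4 and 80.3 CPM with AFZC in HCT116. KIF11, the plus-end motor that separates spindle poles, rose 3.53-fold, and its helper KIF15 3.22-fold. The chromokinesin KIF4A rose 3.66-fold, KIFC1, which clusters spindle poles, 2.71-fold, and KIF14, a kinesin of cytokinesis, 2.84-fold. KIF20A, KIF18A and KIF20B rose 2.99-fold, 2.41-fold and 2.77-fold. KIF20A and KIF18A lost the call without replicate 2 of SW620 5-FU and without replicate 1 of SW620 AFZC, and KIF18A also without replicate 1 of SW620 5-FU. KIF20B (adjusted p = 0.0497) lost it without any 1 of the 6 libraries other than HCT116 AFZC, with the scaling factors of DESeq2 and with no filter on low counts.

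Of the 5 spindle microtubule proteins, 3 were called higher in SW620. Both AFZC libraries exceeded both 5-FU libraries there for all 5, a pattern shown by 31.5% of all genes. CKAP2L, a microtubule-associated protein of the spindle, had the largest change of the 60, from 5.27 and 2.99 to 32.0 and 29.5 CPM (7.48-fold, log2 fold change 2.90 ± 0.27, adjusted p = 2.59e-05). It also rose in HCT116, from 12.6 and 15.6 to 23.5 and 30.1 CPM (log2 fold change 0.93 ± 0.25, adjusted p = 0.0362), and by less than in SW620 (difference 1.98 ± 0.36, adjusted p = 0.00545). DLGAP5, which stabilizes kinetochore fibres, rose from 18.8 and 15.8 to 89.3 and 66.2 CPM in SW620 (4.50-fold, adjusted p = 0.000505). TPX2, the activator of Aurora A on spindles, rose 2.60-fold. ASPM, a spindle pole protein, and HMMR, a hyaluronan receptor that also sits on spindles, did not pass in SW620, with log2 fold changes of 1.41 ± 0.45 (adjusted p = 0.0684) and 0.77 ± 0.41 (adjusted p = 0.225). Both passed without either HCT116 AFZC library, where HMMR read 13.1 and 36.7 CPM.

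All 6 genes of chromosome condensation and the chromosome surface rose in SW620. MKI67, the Ki-67 protein that coats mitotic chromosomes and marks cycling cells, read 129 and 93.5 CPM under 5-FU and 754 and 464 CPM under AFZC in SW620 (5.48-fold, log2 fold change 2.45 ± 0.32, adjusted p = 0.000633). In HCT116 it read 210.4 and 376 CPM with 5-FU and 484 and 639 CPM with AFZC. The HCT116 groups did not overlap, but the log2 fold change of 0.94 ± 0.31 did not pass (adjusted p = 0.0836), nor did the difference of 1.52 ± 0.43 (adjusted p = 0.0525). TOP2A, the topoisomerase that untangles sister DNA, read 233 and 198 CPM with 5-FU and 754 and 494 CPM with AFZC in SW620 (2.90-fold, adjusted p = 0.00247) and 150.1 and 176 CPM with 5-FU and 168 and 293 CPM with AFZC in HCT116 (log2 fold change 0.50, adjusted p = 0.271). The condensin I subunit NCAPG rose from 18.9 and 15.98 to 79.2 and 70.3 CPM (4.29-fold, adjusted p = 4.12e-05), with a difference of 1.78 ± 0.29 (adjusted p = 0.00268). Its partner NCAPH rose 4.12-fold, more than the SMC2 and SMC4 subunits that all condensins share, at 2.53-fold and 2.01-fold, a contrast between genes that was not tested. Of the exon bases of NCAPG, 33.1% are shared with LCORL on the other strand and of SMC4 18.5% with TRIM59, and the libraries did not keep the strand. Smaller shares overlap in other genes, among them 15.9% of FOXM1 with ITFG2 and 11.7% of CENPU with PRIMPOL.

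In the midzone and cytokinesis set, CEP55 and ANLN rose in both lines, and PRC1 and ECT2 were called in neither. CEP55, which recruits the machinery of the final cut, read 44.6 and 48.5 CPM with 5-FU and 82.4 and 78.3 CPM with AFZC in HCT116, and 31.0 and 24.1 CPM with 5-FU and 133 and 107 CPM with AFZC in SW620. Its log2 fold changes were 0.79 ± 0.17 (adjusted p = 0.012) and 2.12 ± 0.17 (adjusted p = 9.77e-06), and the difference of 1.34 ± 0.24 passed (adjusted p = 0.00456). ANLN, anillin, a scaffold of the contractile ring, read 82.2 and 92.8 CPM with 5-FU and 118 and 151 CPM with AFZC in HCT116 and 94.3 and 110.2 CPM with 5-FU and 214 and 192 CPM with AFZC in SW620, with log2 fold changes of 0.62 ± 0.17 (adjusted p = 0.0342) and 0.99 ± 0.17 (adjusted p = 0.00169). Here the difference of 0.37 ± 0.24 did not pass (adjusted p = 0.368). ECT2, the exchange factor that activates RhoA, read 104 and 104 CPM with 5-FU and 133 and 135 CPM with AFZC in SW620 (log2 fold change 0.37 ± 0.21, adjusted p = 0.241). PRC1, the microtubule bundler of the midzone, had only 261 counts in the 8 libraries together. Of its exon bases 57.6% are shared with AC068831.7, which is annotated on the same strand and had 1506 counts. Reads of the 2 cannot be told apart there, and PRC1 is not read further.

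The 2 HCT116 AFZC libraries differed from each other at these genes more than at most others. Replicate 2 exceeded replicate 1 for 58 of the 60, with a median log2 ratio of 0.61, and by over 2-fold for 10. The median over all genes tested was -0.01, with 5.73% over 2-fold, and over 32 DNA replication genes it was 0.09. For the 60 genes the medians in the other groups were 0.15 in HCT116 5-FU, -0.24 in SW620 5-FU and -0.17 in SW620 AFZC. By role, the median was highest for spindle microtubule proteins at 0.99, then entry genes at 0.74 and kinesins at 0.72, and lowest for midzone and cytokinesis genes at 0.26. CENPE had the widest ratio, 2.46 on the log2 scale, followed by CENPF at 1.62 and KIF20B at 1.6, and SPC24 and CEP55 were the 2 genes with replicate 2 not higher. The 9 genes not called in SW620 had a median ratio of 1.40, with 6 over 2-fold, and the 51 that were called had 0.53, with 4 over 2-fold. This contrast is partly built in, because in one model for 8 libraries such a gap enters the error of the SW620 test. The 9 genes, PRC1 among them, included 8 with both SW620 AFZC libraries above both 5-FU libraries, a pattern shown by 31.5% of all genes.

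**Figure D5:**
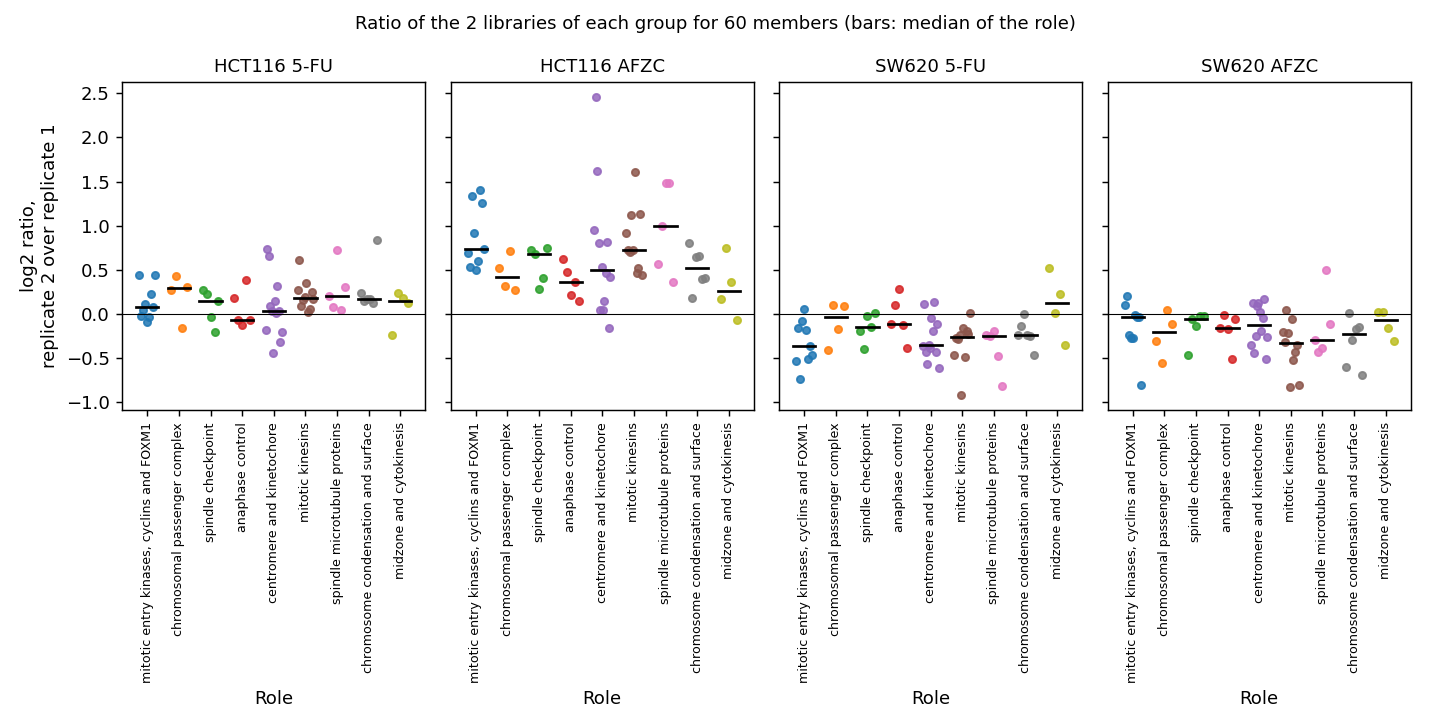
Log2 ratio of replicate 2 over replicate 1 in each of the 4 groups (panels) for the 60 genes, by role, with a bar at each role's median. Points in the HCT116 AFZC panel lie almost all above 0 and reach 2.46, and in the other 3 panels the medians over the 60 genes lie between -0.24 and 0.15.

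The HCT116 changes depend on which of these libraries is kept. Without replicate 1 of HCT116 AFZC, the 60 genes had a median log2 fold change of 0.71 in HCT116. Without replicate 2 that median was 0.00. The median difference between the lines was 0.95 without replicate 1 and 1.73 without replicate 2. The SW620 median was 1.56 without either.

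Comparing the lines under one agent at a time, SW620 had less of these RNAs than HCT116 under 5-FU and rather more under AFZC. These 2 comparisons use the same libraries as those above. Under 5-FU, 30 of the 60 were lower in SW620 and 2 higher, against 28.2% and 26.5% of all genes, with a median log2 fold change of -0.77. Under AFZC, 24 were higher and 1 lower, against 25.1% and 24.2%, with a median of 0.51. Under 5-FU the widest gaps were in BIRC5 (log2 fold change -2.43 ± 0.21, adjusted p = 8.93e-07), SPC25 (-2.39 ± 0.27, adjusted p = 9.97e-06) and CDC25C (-2.37 ± 0.28, adjusted p = 1.33e-05), all lower in SW620. Under AFZC these 3 were at -0.34, 0.27 and -0.17 and did not pass. CENPN and SMC2 were the 2 genes called higher in SW620 under 5-FU and again under AFZC, with log2 fold changes of 0.61 and 0.47 under 5-FU and 1.68 and 1.85 under AFZC. Of the exon bases of CENPN, 12.8% are shared with CMC2 on the other strand, which had 13362 counts against 8685 for CENPN. KIF20A, a kinesin of cytokinesis, was the 1 gene lower in SW620 under AFZC (-1.39 ± 0.35, adjusted p = 0.0083), and it was lower under 5-FU too (-2.33 ± 0.37, adjusted p = 0.000436). Without replicate 1 of HCT116 5-FU neither CENPN nor SMC2 was called under 5-FU, and SMC2 was not without replicate 2 of HCT116 5-FU or replicate 1 of SW620 5-FU. Under AFZC the median was 0.22 without replicate 1 of HCT116 AFZC and 0.85 without replicate 2. KIF20A lost its call under AFZC without replicate 2 of HCT116 AFZC and without replicate 2 of SW620 AFZC. With libraries scaled by their totals alone, the median under 5-FU was -1.07 and no member was called higher.

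Compared per kilobase of exon, which allows genes to be ranked within a group, the same few RNAs led in most groups. In SW620 with AFZC the highest levels were TOP2A at 96.9 (range 76.8 to 117) CPM per kilobase, CDK1 at 78.4 (range 71.1 to 85.7) and UBE2C at 73.1 (range 72.9 to 73.3). Ranges are those of the 2 libraries, and each of these genes overlapped its neighbour in the order. In SW620 with 5-FU, TOP2A led at 33.4 (range 30.7 to 36.2) and UBE2C followed at 31.6 (range 30.5 to 32.7), with overlapping ranges. CDC20 led in HCT116 with 5-FU at 40.6 (range 38.0 to 43.2), above UBE2C at 36.3 (range 35.4 to 37.3) with no overlap, and UBE2C led in HCT116 with AFZC at 59.8 (range 50.02 to 69.6), where its range overlapped that of TPX2 at 53.0 (range 42.7 to 63.3). Apart from PRC1, CENPE, CENPI and SGO1 were among the lowest in all 4 groups, and CENPE stood at 2.14 (range 2.06 to 2.23) in SW620 with AFZC.

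Further genes of the same machinery were followed in 7 lists with 107 genes. In SW620, 59 of the 107 rose and 2 fell, with a median log2 fold change of 0.68, against 11.6% and 6.95% of all genes. In HCT116 6 rose and 2 fell, with a median of 0.06, against 5.87% and 3.74% of all genes. The HCT116 counts are thus no higher than those shares. The outer kinetochore list had 11 of 14 higher in SW620, led by SKA3, a subunit of the SKA complex that holds microtubule ends, which read 6.47 and 4.08 CPM under 5-FU and 38.3 and 41.2 CPM under AFZC (7.55-fold, adjusted p = 7.67e-06). DSN1, of the MIS12 complex, rose 5.62-fold. In the inner kinetochore list 11 of 14 rose, among them HJURP, the chaperone of CENPA (3.97-fold), and CENPQ (3.47-fold), and 1 fell. The anaphase-promoting complex list had 1 of 17 higher and a median of 0.18. That 1 was FBXO5, the EMI1 inhibitor of the complex (2.86-fold, adjusted p = 0.000423), and the other 16 were not called. Whether this list differs from the others was not tested.

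Cohesin and further condensin genes had 8 of 15 higher in SW620. ESCO2, which acetylates cohesin in S phase, read 2.82 and 2.08 CPM with 5-FU and 30.1 and 31.8 CPM with AFZC (12.6-fold, log2 fold change 3.66 ± 0.23, adjusted p = 4.73e-06), and CDCA5, sororin, rose 5.71-fold. Of the augmin, gamma-tubulin and spindle pole genes 12 of 20 rose, led by GTSE1 (5.35-fold) and SPAG5, astrin (4.79-fold). Regulators of mitotic entry and exit had 10 of 15 higher and 1 lower, led by PKMYT1, the kinase that inhibits CDK1 (5.04-fold), and PBK, a mitotic kinase (4.64-fold). Of the DREAM and MMB complex genes 6 of 12 rose, led by MYBL2, B-MYB, which read 30.5 and 24.8 CPM with 5-FU and 182 and 201 CPM with AFZC (6.93-fold, adjusted p = 4.73e-06), and RBL1, p107 (4.03-fold). In HCT116 the calls were CENPP, KNL1, SKA3, SPAG5, PKMYT1 and MYBL2, higher by 1.004, 0.72, 0.80, 0.60, 0.72 and 0.56 on the log2 scale, and CDC25B and TFDP2, at -0.89 and -0.61. All 8 lost their calls without either HCT116 5-FU library.

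Genes of DNA replication act in S phase, before mitosis. In SW620 32 of 32 of them rose, with a median log2 fold change of 2.08, against 11.6% of all genes. In HCT116 1 rose and 2 fell, with a median of -0.07, against 5.87% and 3.74% of all genes. Their difference between the lines was called higher for 31 of 32, against 5.65% of all genes. CDKN1A, which encodes p21, an inhibitor of cyclin-dependent kinases, differed the other way between the lines. It read 189 and 175 CPM with 5-FU and 2030.3 and 1633 CPM with AFZC in HCT116, and 71.2 and 99.9 CPM with 5-FU and 157 and 123 CPM with AFZC in SW620. The log2 fold change was 3.33 ± 0.22 in HCT116 (adjusted p = 7.94e-06) and 0.71 ± 0.21 in SW620 (adjusted p = 0.0302), the latter lost without either HCT116 5-FU library, replicate 1 of SW620 5-FU or replicate 1 of SW620 AFZC, and the difference was -2.62 ± 0.30 (adjusted p = 0.000299).

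Library totals ran from 31991561 to 40590291 counts, of which 63656 to 230141 belonged to the 60 genes. TMM factors of SW620 were 0.867 and 0.816 with 5-FU and 1.11 and 1.07 with AFZC, and scaling by totals alone shifted the SW620 changes of all genes by a median of 0.38 on the log2 scale. Calls over all genes in SW620 were then 5141 higher and 445 lower, against 2482 and 1486 with TMM, and those of the difference 2455 and 430, against 1207 and 884. For SW620 against HCT116 under 5-FU they were 4267 higher and 7714 lower, against 5675 and 6030. Colorectal epithelial markers were present in both lines, with EPCAM at 259 to 658 CPM, while CDX1 was at 0 to 0.23 CPM throughout and VIL1 at 0 to 1.96 CPM in HCT116. Their summed level was lower in SW620 with AFZC (5464 and 5016 CPM) than with 5-FU (15195 and 16532 CPM), while in HCT116 it was 7946 and 4887 CPM with AFZC and 4328 and 3501 CPM with 5-FU. Of 11 stromal, endothelial and immune markers 3 to 5 were at 0 in each library, and their sum was 47.5 to 131 CPM, highest in SW620 AFZC replicate 1, most of it COL1A1 in HCT116 and COL1A1, LUM, LYZ and VWF in SW620, while PTPRC, CD3E and DCN were at 0 to 0.14 CPM. Ribosomal protein genes took 6.12% to 7.76% of counts with 5-FU and 3.36% to 4.78% with AFZC, and mitochondrial genes 5.18% to 12.4%. The part of these measures in the results above was not tested.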

How the data were processed

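RNA was measured in 8 libraries of poly(A) RNA prepared without strand information, 2 for each line and agent, per the labels' protocols. The authors deposited raw counts per gene in 1 table, in the layout of featureCounts. Per the submitters' processing notes, the build named is GRCh38 and the tools named are the aligners STAR and HISAT2, featureCounts for counting, cutadapt, Trimmomatic and FastQC, besides edgeR and DESeq2, with no version or role. Which aligner made the counts, whether mates were counted singly and how reads shared by genes were treated is not given in the sources used here. A gene that overlaps another can therefore be undercounted or can hold reads of its neighbour.

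From these counts, edgeR 4.0.16 in R 4.3.3 kept genes by filterByExpr with a count minimum of 10, scaled libraries by TMM and fitted 1 robust quasi-likelihood model with 4 group means (4 residual degrees of freedom, common biological coefficient of variation 19.9%). Contrasts were AFZC against 5-FU in each line, the difference of these, and SW620 against HCT116 under each agent. Adjusted p-values are Benjamini-Hochberg over the 21378 genes, with a threshold of 0.05. A standard error is the log2 fold change divided by the root of the F statistic. On simulated counts for SW620 with 200 changed genes (20687 genes tested) edgeR recovered 49% of 2-fold and 77% of 4-fold changes. Of its calls there 5.97% were false, and of those of DESeq2 16.25%. The measured SW620 comparison called 2482 genes higher and 1486 lower, so these shares may not carry over to it. Ratios of replicates added 0.01 CPM. Promoters came from the RefSeq table. Alternatives were DESeq2 1.42.0, other scaling, no filter on low counts, each line alone, a replicate block and leaving out each library.

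Genes were named by rule. The rule took the 2 called genes with the largest SW620 change in each role and list, every gene called in HCT116, and FOXM1, CCNB1, CDK1, MKI67, TOP2A, BUB3, PTTG1, UBE2C and CDKN1A. Other genes were named after their values were seen. The members and lists were chosen with earlier results of these data known.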

Additional observations from a re-analysis of the deposited data

Results flagged for a closer look

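The AFZC effect differed between the lines for 31 of the 60 genes by the test of the difference itself, all higher in SW620. On the log2 scale the differences (SW620 minus HCT116) were, among the genes named by rule, 1.77 for FOXM1, 1.19 for CDK1 and 2.20 for CDC25C. In the passenger complex and checkpoint they were 1.86 for AURKB, 2.09 for BIRC5 and 1.24 for BUB1B. ESPL1 had 1.62, SGO1 1.47, SPC24 2.76 and SPC25 2.66. KIF23 had 1.75, KIF2C 1.94, DLGAP5 1.56, CKAP2L 1.98, NCAPG 1.78 and CEP55 1.34.

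The same test passed for further genes of the machinery. The differences were 1.47 for CENPQ, 1.49 for HJURP, 1.07 for KNL1, 2.22 for DSN1 and 2.11 for SKA3. FBXO5 had 1.49, CDCA5 2.32, ESCO2 3.01, SPAG5 1.66 and GTSE1 1.85. PKMYT1 had 1.62, PBK 1.74, MYBL2 2.23 and RBL1 1.90. CDKN1A was the 1 gene of those named with a lower effect in SW620, at -2.62.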

How the results depend on the processing

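In SW620 the median log2 fold change was 1.45 to 1.73, with 45 to 57 of the 60 genes higher, when single libraries were left out, and 1.93 when libraries were scaled by their totals alone. In HCT116 the number higher was 15 with no filter on low counts and 0 to 12 without single libraries, and the number lower 0 to 4. The difference was called for 21 to 52 genes without single libraries. For SW620 against HCT116 under 5-FU, 0 to 2 were higher without single libraries, and scaling by totals gave 0 higher and a median of -1.07. Under AFZC, 16 to 42 were higher and 0 to 7 lower. The changes under totals scaling follow from the shift it makes over all genes, and the cause of the others was not tested.

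Without single libraries the HCT116 values ranged from -0.87 to 0.55 for PLK1, -1.46 to 1.01 for CENPE and -0.80 to 0.82 for KIF20B, and each was called lower without replicate 2 of HCT116 AFZC, while KIF20B was called higher without replicate 1. Between the lines under AFZC the ranges were -0.62 to 0.74 for CCNB1, -0.66 to 0.75 for PLK1, -1.1 to 1.37 for CENPE, -0.75 to 0.89 for CENPF, -0.48 to 0.66 for KIF18A and -0.62 to 0.88 for HMMR. All 6 were called higher in SW620 without that same library, and PLK1, CENPE and CENPF were called lower, at the low end of their ranges, without replicate 1 of HCT116 AFZC.

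With the replicate number as a block, 9 genes were higher in HCT116, 56 in SW620 and 42 for the difference, which held 30 of its 31. Over all genes tested, the deviations of same-numbered libraries had correlations of 0.0024 in HCT116 and -0.025 in SW620. Among the 60 genes, replicate 2 was higher for 46 with 5-FU and 58 with AFZC in HCT116. In SW620 it was lower for 48 with 5-FU and 47 with AFZC. Whether same-numbered libraries share more than a number was not tested. With 2 libraries in a group, small changes can be missed.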

Other observations

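Across the 60 genes the SW620 and HCT116 effects had a Pearson correlation of 0.31 and a Spearman correlation of 0.29, given as a description over genes that share libraries. The promoters of the 52 matched genes held 51 CHR or variant matches, 28 of them in the 80 bases before the start and 12 after it. Annotated copies took few counts, with 88 for KIF4B against 12525 for KIF4A, and 6 for PTTG2 and 7 for PTTG3P against 14410 for PTTG1.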
